A study of Mus musculus with 23 samples.

Results

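Open chromatin was described at 8 genes that mark microglia, the resident macrophages of the brain: Tmem119, Olfml3, Golm1, Bin1, Sparc, Slc2a5, Crybb1 and Adgrg1. The peaks taken were those whose summit lay in the body of one of these genes or within 20 kb of it on GRCm38, and a summit near several of them went to the nearest. After overlapping peaks of the libraries were merged to windows reaching 250 bp to either side of a summit, called regions here, 78 of the 49125 regions kept in the whole series belonged to the 8 genes. They came from 102 windows, of which 24 had a peak in fewer than 3 libraries and were not kept. Bin1 had 15 regions, Golm1 12, Crybb1 12, Tmem119 11, Adgrg1 10, Sparc 8, Olfml3 5 and Slc2a5 5. Inside a gene body lay 36 of the 78. For 25, the nearest protein-coding gene was taken to be another one. Among these were regions 5 and 6 of Crybb1, which lay in the bodies of both genes.

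The libraries were ATAC-seq libraries, in which a transposase cuts accessible DNA, made from striatal microglia of male mice aged 8 to 10 weeks. The offspring of dams with maternal immune activation were given lipopolysaccharide (MIA_LPS, n = 5) or saline (MIA_SAL, n = 6), as were control offspring (CON_LPS, n = 7, and CON_SAL, n = 5). The labels do not name the agent given to the dams. LPS, a component of bacterial walls, was given into the peritoneum at 4500 endotoxin units per gram, and cells were taken 18 h after the injection. All 4 groups shared the papain digestion at 37 °C and the gate, which kept live CD11b+ CD45-low P2RY12+ cells. Since P2RY12 is itself a microglia marker, cells that had lost the protein were not sampled. According to its title, the series asks whether immune stress before birth dampens how microglia react later. The comparisons are therefore LPS with saline, MIA with CON, and the LPS response of MIA with that of CON offspring.

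Microglia keep a set of genes that sets them apart from other macrophages of the body, and this identity depends on signals of the brain such as TGF-beta and on factors such as PU.1, SALL1 and MEF2. The set is known to fall at the RNA level when microglia respond to bacterial products or are placed in culture. Of its products described here, TMEM119, ADGRG1 (an adhesion receptor also called GPR56) and SLC2A5 (the fructose transporter GLUT5) sit in the cell membrane. OLFML3 and SPARC are secreted glycoproteins, and SPARC is also made by blood vessel cells. GOLM1 is a membrane protein of the Golgi, BIN1 bends membranes during endocytosis, and CRYBB1 is a crystallin best known from the lens. The human BIN1 locus carries risk alleles of Alzheimer's disease, and in the brain ADGRG1 and BIN1 are also made by cells of the oligodendrocyte lineage.

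The deposited lists held 33949 to 68312 peaks, and each was shortened to its best 33949 by −log10 p so that lists could be compared. Values below are ranks within a list: 100 is the best peak of a library and 0 means no peak in the region. With no table of counts, the depth of the libraries is unknown. Of the markers of the gate and of microglia, P2ry12, Cx3cr1, Csf1r and Sall1 each had a region with a peak in all 23 libraries, with median ranks of 73.2, 77.8, 91.4 and 85.8. No region was kept at Gad2 or Snap25 of neurons, Aqp4 of astrocytes, Cldn5 of endothelium or Ly6c2 of monocytes. Yet regions were kept at 5 of 11 neuron, 6 of 9 astrocyte, 6 of 9 endothelial and mural and 9 of 11 monocyte and neutrophil genes looked at. The same held for 8 of 11 oligodendrocyte lineage and 9 of 10 border-associated macrophage genes. A region at Rbfox3 of neurons ranked 91.9 to 99.1 in the 23 libraries. Gfap of astrocytes and Cdh5 of endothelium also had a region with a peak in all 23, at median ranks of 73.4 and 76.0. So had Mbp of the oligodendrocyte lineage and Mrc1 of border-associated macrophages, at 72.9 and 54.5. Whether the libraries are separate animals is not stated in the labels, so the spread that the p-values use may be technical. The labels carry an ID number of unstated meaning, with 14 distinct numbers over the 23 libraries. Of the libraries, 17 share theirs with another, as 4 pairs within a group and otherwise across treatments of 1 prenatal group, so the libraries may not all be independent.

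After LPS, chromatin at the 8 genes changed in both directions, and lower ranks were more numerous than higher ones. In the rank test of LPS against saline over both prenatal groups, made with limma on all 49125 regions, 17 of the 78 regions (21.8%) were lower and 9 (11.5%) higher. Across all regions, 9.48% were lower and 10.5% higher, so the share of higher regions at the 8 genes was near that of the genome and the share of lower ones was above it. The median difference of rank, LPS minus saline, was −2.10 points over the 78 regions and −0.595 points over all regions. Lower regions were found at Crybb1 (5), Bin1 (4), Golm1 (2), Sparc (2), Tmem119 (2), Olfml3 (1) and Adgrg1 (1). Higher regions were found at Bin1 (3), Sparc (2), Tmem119 (1), Olfml3 (1), Golm1 (1) and Crybb1 (1), so that 6 of the 8 genes had regions of both kinds. Slc2a5 had no called region. With peaks ranked by fold enrichment in place of −log10 p, 9 of the 67 member regions kept were lower and 7 higher, where 6.55% of all regions were lower and 8.42% higher. In lists of 16974 peaks, 9 of the 42 kept were lower and 3 higher, where 7.60% of all regions were lower and 7.84% higher. With the ID number as a random block in limma, 18 were lower and 9 higher, where 4778 of all 49125 regions were lower and 5277 higher.

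The called regions were also counted by place, with no test of the difference and no such count over all regions. Of the 17 lower regions, 6 lay within 1 kb of the gene's start, or of a gene end where the strand was not at hand, while 0 of the 9 higher regions did. Among these 6 were regions 3 and 14 of Bin1, at opposite ends of that gene, so they cannot both be at its start. Region 4 of Bin1, 596 bp inside the end near region 3, was open in all 23 libraries. It did not pass the test, at −1.56 points (limma BH-adjusted p = 0.597). Over the 9 higher regions the median rank was 0 after saline and 40.2 after LPS, and 4 of them had no peak in any saline library. The saline median was not 0 at all of them: it was 57.2 at region 1 of Bin1 and 44.4 at region 1 of Tmem119. The lower regions had a median rank of 2.06 after LPS, against 53.5 after saline, and 5 of the 17 had no peak in any LPS library. Because the regions were called by this difference of ranks, the medians only describe them. Among the 78 regions, 6 had no peak in any LPS library and 11 had none in any saline library. The minimum of 3 libraries let those 17 regions through by 1 treatment alone, so their number is no support for a difference. The libraries of the other treatment, all at 0, had no spread there, so limma's SE and p-values at these regions may be too small. Of the 21 regions with a peak in all 23 libraries, 5 were lower after LPS and 1 was higher. The same counts over all regions of the genome with such peaks are not given here. The sign of the difference was the same in MIA and in CON offspring for all 26 called regions, and also among the 13 libraries of fewer than 20000 sorted cells and the 10 of more. Since the regions were called on the mean of both prenatal groups in these same libraries, this agreement was largely set by the choice. It is therefore no separate support.

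**Figure D1:**
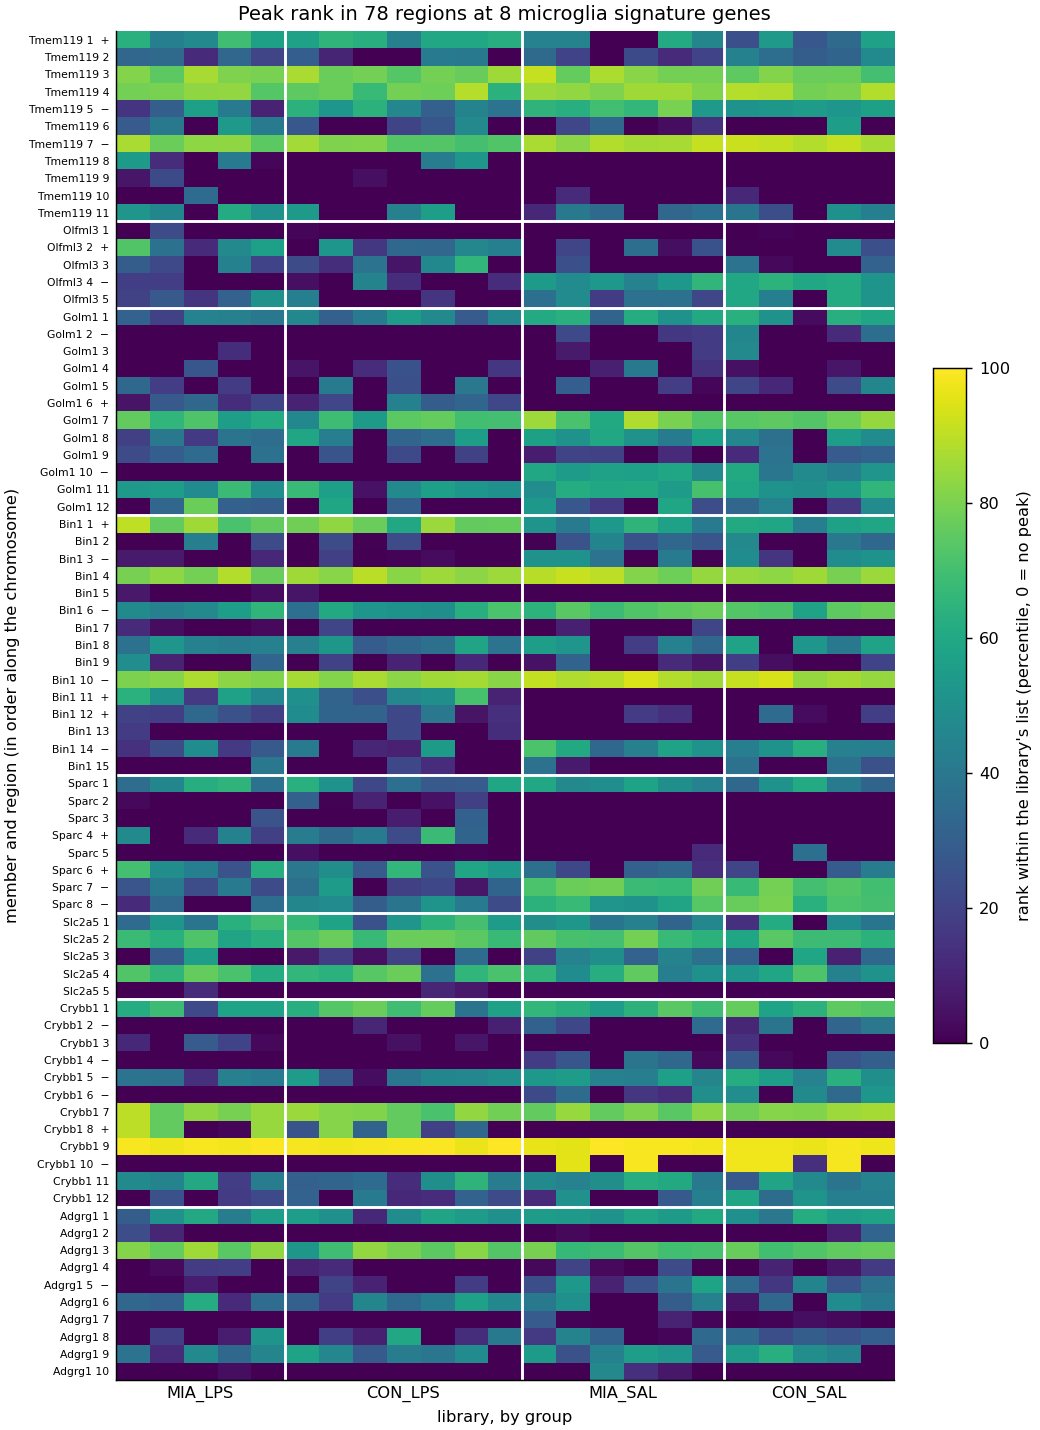
Rank of the peak within each library's list (colour, 0 for no peak and 100 for the best peak) in the 78 regions (rows, by gene) and the 23 libraries (columns, by group). A plus or minus after a name marks a region that was higher or lower after LPS in the rank test. Dark cells in the LPS groups beside lit cells in the saline groups stand out at region 10 of Golm1, region 4 of Olfml3 and region 6 of Crybb1, and the reverse at region 11 of Bin1.

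The number of libraries with a peak was compared as well, by an exact conditional test stratified by prenatal group. Of the 32 member regions whose numbers allowed a test, 6 were called with a peak in more LPS libraries and 7 with a peak in fewer. With all deposited peaks these counts were 10 and 4. Of all 25543 regions tested in that setting, 2426 were called with more and 544 with fewer libraries. Among all 17548 regions tested in the shortened lists, 15.3% were called with more and 8.39% with fewer libraries. In the lists of equal length, the 8 genes had 52 to 56 peaks in MIA_LPS, 41 to 57 in CON_LPS, 46 to 60 in MIA_SAL and 44 to 58 in CON_SAL libraries, so these ranges overlapped. By gene, Sparc had 4 to 7 peaks in MIA_LPS and 4 to 9 in CON_LPS, against 3 to 5 in MIA_SAL and 3 to 5 in CON_SAL libraries. Adgrg1 had 5 to 7 in MIA_LPS and 4 to 7 in CON_LPS, against 6 to 9 in MIA_SAL and 6 to 9 in CON_SAL libraries. Ranks of LPS and saline libraries did not overlap in 3 of the 78 regions, which were region 10 of Golm1, region 7 of Sparc and region 11 of Bin1. Across the genome this held for 2.09% of regions.

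The promoters printed here are those under or beside the peaks at the starts of Sparc, Olfml3 and Crybb1, which ranked lower after LPS, and of Golm1 and Adgrg1, which did not pass the test. Each is the 250 bases before the start, from RefSeq on GRCm38.p6, 5′ to 3′ on the strand of the gene. Capitals mark matches to motifs of factors known in microglia. The table of promoters held 6 of the 8 genes, among them also Slc2a5.
Sparc, chr11:55420081-55420330, minus strand: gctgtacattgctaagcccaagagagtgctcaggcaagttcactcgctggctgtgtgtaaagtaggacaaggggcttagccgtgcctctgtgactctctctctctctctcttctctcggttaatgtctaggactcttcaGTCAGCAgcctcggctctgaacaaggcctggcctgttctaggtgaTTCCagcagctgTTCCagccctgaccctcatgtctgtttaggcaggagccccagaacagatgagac
Olfml3, chr3:103738002-103738251, minus strand: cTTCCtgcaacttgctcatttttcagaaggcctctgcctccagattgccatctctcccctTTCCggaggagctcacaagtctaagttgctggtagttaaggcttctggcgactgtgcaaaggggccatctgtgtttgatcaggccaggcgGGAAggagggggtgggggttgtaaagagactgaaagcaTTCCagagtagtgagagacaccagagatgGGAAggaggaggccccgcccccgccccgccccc
Crybb1, chr5:112255570-112255819, plus strand: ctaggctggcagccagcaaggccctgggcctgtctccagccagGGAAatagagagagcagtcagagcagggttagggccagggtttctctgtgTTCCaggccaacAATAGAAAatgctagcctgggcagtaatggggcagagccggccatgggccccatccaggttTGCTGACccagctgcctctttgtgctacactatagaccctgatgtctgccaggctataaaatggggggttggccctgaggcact
Golm1, chr13:59675785-59676034, minus strand: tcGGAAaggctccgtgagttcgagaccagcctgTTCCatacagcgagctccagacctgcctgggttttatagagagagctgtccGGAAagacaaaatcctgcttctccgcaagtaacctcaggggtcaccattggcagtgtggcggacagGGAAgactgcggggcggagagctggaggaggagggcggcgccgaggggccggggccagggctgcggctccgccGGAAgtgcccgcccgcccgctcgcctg
Adgrg1, second start, chr8:94984149-94984398, plus strand: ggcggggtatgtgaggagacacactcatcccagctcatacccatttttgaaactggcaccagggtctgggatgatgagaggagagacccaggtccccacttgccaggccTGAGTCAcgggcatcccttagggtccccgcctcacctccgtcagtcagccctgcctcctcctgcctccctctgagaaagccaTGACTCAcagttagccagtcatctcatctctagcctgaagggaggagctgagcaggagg

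Both strands were searched for PU.1 GAGGAAGT and its ETS core GGAA, MEF2 TATTTATA and TAAAAATA, IRF AANNGAAA, AP-1 TGANTCA, SMAD GTCTAGAC, C/EBP TTGCNNAA, NF-kB GGANNTTCC, RUNX TGTGGT and MAF TGCTGAC. The ETS core lies inside the PU.1 motif and may lie inside the NF-kB motif, and the AP-1 motif is its own reverse complement. The second start of Adgrg1 had 2 AP-1 matches, TGAGTCA from 141 to 135 and TGACTCA from 59 to 53 bases before the start; 6.75% of the 32817 promoters of this length held at least 1. The Sparc promoter had a MAF match, GTCAGCA, from 111 to 105 bases before the start, and that of Crybb1 had one, TGCTGAC, from 84 to 78; 3.81% of promoters held this motif. Crybb1 also had an IRF match, AATAGAAA, from 145 to 138 bases before the start, a motif in 21.3% of promoters. Of the ETS core, found in 93.4% of promoters, Olfml3 and Golm1 had 5 matches each, Sparc and Crybb1 2 each, and the second start of Adgrg1 and Slc2a5 had 0. PU.1, MEF2, SMAD, C/EBP, NF-kB and RUNX letters were found in none of these windows, and 2.44%, 3.90%, 0.168%, 9.57%, 3.58% and 14.0% of all promoters held them. The 250 bases were 54.0% G or C at Sparc, 57.6% at Olfml3, 58.0% at Crybb1, 59.2% at Adgrg1 and 65.6% at Golm1, beside a median of 52.4% over all promoters.

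Both genes of secreted products, Sparc and Olfml3, ranked lower at the start after LPS. At Sparc, region 7 (chr11:55419674-55420174), whose centre is 156 bp into the gene, ranked 26.2, 40.4, 23.8, 40.7 and 22.9 in the 5 MIA_LPS libraries and 0 to 55.4 (median 21.8) in the 7 CON_LPS libraries, against 67.02 to 78.5 (median 74.6) in the 6 MIA_SAL libraries and 67.5, 79.3, 70.2, 73.2 and 69.8 in the 5 CON_SAL libraries. Every LPS library lay below every saline library, and CON_LPS 3 had no peak among its best 33949. The difference was −45.1 ± 4.87 points (SE) with a limma BH-adjusted p of 5.32e-07, and it was −42.7 ± 7.00 points in MIA offspring and −47.5 ± 6.77 points in CON offspring. A second region 13069 bp before the start, region 8 (chr11:55432899-55433399), also ranked lower, at 0 to 51.9 in the LPS libraries and 51.1 to 79.7 in the saline libraries. Its difference was −38.8 ± 4.63 points (SE), limma BH-adjusted p = 2.14e-06.

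Inside the Sparc gene, regions were higher after LPS while the start was lower. Region 4, 14321 bp into the gene (chr11:55405509-55406009), had a peak in 10 of 12 LPS libraries and 0 of 11 saline libraries and ranked up to 68.3 after LPS. The presence test gave a BH-adjusted p of 0.00191 and limma one of 0.00123. Region 6, 1769 bp into the gene (chr11:55418061-55418561), ranked 25.5 to 69.9 in the LPS libraries and 0 to 42.1 in the saline libraries, with a peak in 12 of 12 LPS libraries and 8 of 11 saline libraries. It rose by 27.5 ± 6.55 points (SE), limma BH-adjusted p = 0.00428, and in lists of 16974 peaks the difference was 10.6 points with an adjusted p of 0.129.

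At Olfml3 the region at the start, region 4 (chr3:103737734-103738234), was the best ranked of the gene, and its centre is 17 bp into the gene. Ranks were 18.5, 18.3, 0, 0 and 0 in the 5 MIA_LPS libraries and 0 to 44.6 (median 4.11) in the 7 CON_LPS libraries, against 44.4 to 66.0 (median 53.3) in the 6 MIA_SAL libraries and 59.6, 64.8, 59.8, 61.5 and 51.6 in the 5 CON_SAL libraries. All 11 saline libraries had a peak, while 6 of 12 LPS libraries had one, and CON_LPS 3 with its 44.6 was the 1 LPS library within the saline range, just above MIA_SAL 4. The difference was −47.4 ± 4.53 points (SE), limma BH-adjusted p = 8.78e-08; the number of libraries alone gave an exact BH-adjusted p of 0.0576, which was 0.0287 to 0.0297 without MIA_LPS 1 or without MIA_LPS 2. In 4 libraries the peak also reached region 5, directly upstream. Region 2, 9893 bp after the start and past the gene's other end (chr3:103727858-103728358), ranked 0 to 72.8 in the LPS libraries and 0 to 48.2 in the saline libraries and was called higher, by 24.2 ± 7.81 points (SE), limma BH-adjusted p = 0.0318. That call was lost without any 1 of CON_SAL 1, 2 or 3, MIA_SAL 1, 3 or 5, or MIA_LPS 1 or 5, at adjusted p-values of 0.0510 to 0.0682, and it was 0.0533 with no minimum of libraries and 0.297 in lists of 16974 peaks.

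**Figure D2:**
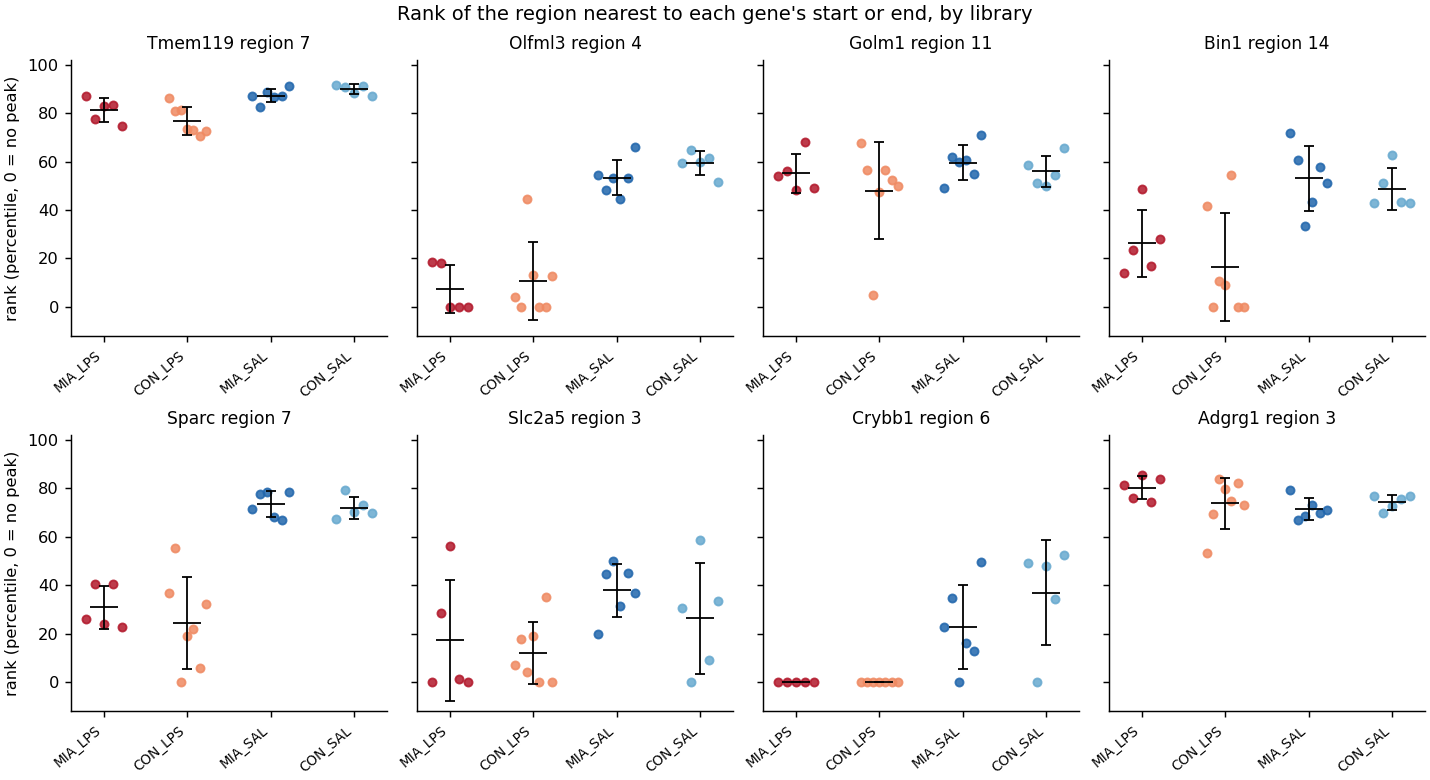
Rank within the library's list (percentile, 0 for no peak) of the region nearest to each gene's start, or to a gene end for Tmem119 and Bin1; each point is a library, with the mean and SD of its group in black. LPS libraries lie below all saline libraries at Sparc alone. At Crybb1 they are all at 0, as are MIA_SAL 3 and CON_SAL 2. LPS and saline libraries overlap at Tmem119, Olfml3, Bin1, Golm1, Slc2a5 and Adgrg1.

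Of the membrane proteins, Tmem119 kept its main region open in all 23 libraries. Region 7, 58 bp from a gene end (chr5:113800204-113800704), ranked 81.2 ± 4.97 in MIA_LPS, 76.9 ± 5.82 in CON_LPS, 87.3 ± 2.74 in MIA_SAL and 89.9 ± 2.05 in CON_SAL (SD, n = 5, 7, 6 and 5). LPS libraries ranged from 70.6 to 87.2 and saline libraries from 82.8 to 91.9, so the groups overlapped. It fell by 9.53 ± 1.97 points (SE; limma BH-adjusted p = 0.00123), and when peaks were ranked by fold the difference was −7.82 with an adjusted p of 0.0853. The difference was −6.03 ± 2.83 points in MIA offspring and −13.0 ± 2.73 points in CON offspring. Region 5, 6593 bp from the gene (chr5:113786886-113787386), ranked 15.5, 30.2, 56.3, 41.8 and 10.0 in the 5 MIA_LPS libraries and 30.6 to 64.4 (median 46.1) in the 7 CON_LPS libraries, against 53.6 to 79.7 (median 65.6) in the 6 MIA_SAL libraries and 51.05, 53.01, 55.3, 52.4 and 57.0 in the 5 CON_SAL libraries. It fell by 20.3 ± 4.95 points (SE; limma BH-adjusted p = 0.00518). The 3 lowest libraries were MIA_LPS 5, 1 and 2, and LPS and saline libraries overlapped. Ranking by fold gave −7.25 points and an adjusted p of 0.554, and lists of 16974 peaks −14.3 points and 0.0543.

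Other regions near Tmem119 were higher after LPS. Region 8, 5162 bp from the gene (chr5:113805308-113805808), had a peak in 4 of 5 MIA_LPS and 2 of 7 CON_LPS libraries, against 0 of 11 saline libraries, with an exact BH-adjusted p of 0.0265. Without any 1 of CON_SAL 1, 4 or 5 or MIA_SAL 2 this became 0.0503 to 0.0510; its rank passed only without MIA_LPS 3, at a limma BH-adjusted p of 0.0439. Region 1 (chr5:113773600-113774100), which lies in the body of Iscu, an iron-sulfur cluster scaffold gene, ranked 43.2 to 69.2 in the LPS libraries and 0 to 61.1 in the saline libraries. Its difference was 21.3 ± 6.65 points (SE), limma BH-adjusted p = 0.0263; without CON_SAL 1 or without MIA_LPS 4 the adjusted p was 0.0532 and 0.0519. It was 0.0599 by fold and 0.121 without the 6 libraries whose label carries an ID from 1 to 3. The remaining 7 regions of Tmem119 passed neither test.

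Adgrg1 has 2 starts in the RefSeq table, and no region was centred nearer than 7234 bp to the first. The region at the second, region 3 (chr8:94984093-94984593), was open in all 23 libraries and ranked 80.2 ± 4.81 in MIA_LPS, 73.8 ± 10.5 in CON_LPS, 71.4 ± 4.42 in MIA_SAL and 74.3 ± 3.08 in CON_SAL (SD, n = 5, 7, 6 and 5). Its rank did not pass the test, at 4.13 ± 2.89 points (SE) and a limma BH-adjusted p of 0.345. Counting only summits inside the region left 12 LPS and 3 saline libraries. The region was then called higher after LPS, by 58.9 points with a limma adjusted p of 3.15e-05. That call follows where the summits lay. The position of the summit within the peak at region 3 differed, which was noticed after the values were seen. Summits lay 2, 32, 56, 32 and 25 bp before the start in MIA_LPS libraries and 3 to 119 bp before it in CON_LPS (median 25), against 81 to 444 bp in MIA_SAL (median 247.5) and 418, 443, 388, 428 and 445 bp in CON_SAL libraries. All 12 LPS summits fell within 300 bp of the start, as did those of MIA_SAL 1, 3 and 5, while the other 8 saline summits lay farther upstream. No test of the distances themselves is given. All 12 LPS summits and those of MIA_SAL 1, 3 and 5 thus lay in the printed promoter, and the other 8 saline summits upstream of it. Of these, MIA_SAL 1 and 5 share an ID number. Whether the AP-1 letters have a part in the shift was not tested.

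**Figure D3:**
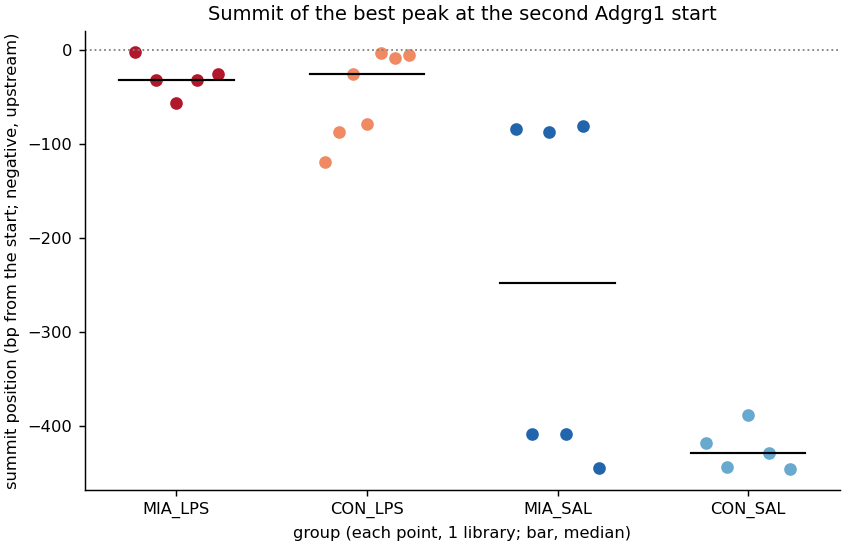
Position of the summit of the best peak at the second Adgrg1 start, in base pairs from the start (negative values upstream), for each library (points) with the group median (bar). Summits of the 12 LPS libraries lie 2 to 119 bp before the start, those of the CON_SAL libraries 388 to 445 bp, and those of MIA_SAL fall into 3 near and 3 far.

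Farther into Adgrg1, 2 regions were called with a peak in fewer LPS libraries. Region 5, 8282 bp after the second start (chr8:94992431-94992931), ranked 0, 0, 7.98, 0 and 0 in the 5 MIA_LPS libraries and 0 to 20.4 (median 0) in the 7 CON_LPS libraries, against 9.98 to 58.0 (median 32.1) in the 6 MIA_SAL libraries and 34.3, 16.4, 45.0, 26.4 and 37.7 in the 5 CON_SAL libraries. A peak was found in 4 of 12 LPS libraries and 11 of 11 saline libraries; the exact BH-adjusted p was 0.0119, and the rank difference was −29.2 ± 4.91 points (SE) with a limma BH-adjusted p of 1.50e-04. The ranks overlapped at their edges, and the exact adjusted p was 0.0675 by fold and 0.189 with all deposited peaks. Region 7 (chr8:94996970-94997470) had a peak in 0 of 12 LPS libraries and 7 of 11 saline libraries, with an exact BH-adjusted p of 0.0144. Its ranks reached 28.7 in MIA_SAL 1 and at most 9.76 in the other saline libraries.

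Slc2a5, the fructose transporter, gave 5 regions and no call. Its best ranked, region 2 at 1853 bp before the start (chr4:150117241-150117741), was open in all 23 libraries at ranks of 58.4 to 77.1 in the LPS libraries and 59.3 to 79.0 in the saline libraries, and the difference was 0.180 ± 2.25 points (SE). Region 3, 1158 bp after the start (chr4:150120252-150120752), ranked 0 to 56.2 in the LPS libraries and 0 to 58.6 in the saline libraries, a difference of −17.6 ± 7.31 points (SE) with a limma BH-adjusted p of 0.0982. Without MIA_LPS 3 or without CON_SAL 2 it was lower after LPS at an adjusted p of 0.0170 and 0.0472.

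With peaks ranked by −log10 p, the largest difference of rank at the 8 genes lay in Golm1. Region 10, 3425 bp after the start and in the gene (chr13:59672109-59672609), ranked 0 in all 5 MIA_LPS and all 7 CON_LPS libraries, against 47.0 to 59.7 (median 56.8) in the 6 MIA_SAL libraries and 60.9, 39.1, 47.5, 43.4 and 52.1 in the 5 CON_SAL libraries. The difference was −52.2 ± 2.03 points (SE), limma BH-adjusted p = 5.81e-14, and the exact presence test gave 1.75e-04. Both LPS groups had no spread at the floor of 0, against an SD of 4.59 in MIA_SAL and 8.41 in CON_SAL. The limma SE shares 1 estimate of spread over the 4 groups, so it and its p may be too small. Ranked by fold, the difference was −27.5 points (adjusted p = 2.33e-04), smaller than the −49.6 of region 7 of Sparc and the −35.7 of region 4 of Olfml3. In lists of 16974 peaks it was −8.80 points (adjusted p = 0.0181). In the lists of 33949, the difference was −54.3 points among the 13 libraries of fewer than 20000 sorted cells and −49.3 points among the 10 others. In the full deposited lists, before they were shortened, CON_LPS 3 and MIA_LPS 1 held a weak peak there, so a rank of 0 means no peak among the best 33949 and not closed chromatin. The start of Golm1, 3425 bp away, did not pass the test: region 11 (chr13:59675574-59676074) ranked 55.1 ± 7.94 in MIA_LPS, 47.9 ± 20.1 in CON_LPS, 59.6 ± 7.36 in MIA_SAL and 56.1 ± 6.38 in CON_SAL (SD, n = 5, 7, 6 and 5). A single library, CON_LPS 3 at 4.86, lay far below the others there.

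Deeper in Golm1 a region appeared after LPS. Region 6, 28069 bp after the start (chr13:59647465-59647965), had a peak in 11 of 12 LPS libraries and 0 of 11 saline libraries, at ranks of up to 44.0. Limma gave 21.3 ± 4.01 points (SE) and a BH-adjusted p of 5.01e-04, the exact presence test 5.37e-04. The best ranked region of the gene, region 7 (chr13:59656436-59656936), was open in all libraries at 46.6 to 76.5 in the LPS libraries and 60.8 to 88.2 in the saline libraries and had a difference of −10.6 ± 3.80 points (SE), limma BH-adjusted p = 0.0537; it passed without any 1 of MIA_LPS 1 or 3, CON_LPS 4 or 5, or MIA_SAL 3 (0.0207 to 0.0480). Region 2 (chr13:59625959-59626459), in the body of the neighbour Naa35, was open in 0 of 12 LPS libraries and 6 of 11 saline libraries, with limma BH-adjusted p = 0.0314 and exact BH-adjusted p = 0.0270. The limma call was lost without any 1 of CON_SAL 1 or 5 or MIA_SAL 2, 5 or 6 (adjusted p 0.0521 to 0.0672), and the exact one without any 1 of the 5 MIA_LPS libraries (0.0503 to 0.0540). By fold the limma adjusted p was 0.0582 and the exact one 0.112, and with all deposited peaks the exact one was 0.547.

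Bin1 had the most regions and changed in both directions. Region 11, in the gene and 16853 bp from its nearer end (chr18:32418637-32419137), ranked 63.7, 50.8, 16.7, 57.2 and 46.6 in MIA_LPS and 9.62 to 70.7 (median 46.1) in CON_LPS libraries, against 0 in all 6 MIA_SAL and all 5 CON_SAL libraries. It rose by 43.7 ± 5.70 points (SE), limma BH-adjusted p = 6.98e-06, exact presence BH-adjusted p = 1.75e-04; in lists of 16974 peaks the limma difference was 7.34 points with an adjusted p of 0.277. Region 1, 17429 bp outside the gene (chr18:32358939-32359439), was open in all 23 libraries and ranked 79.9 ± 8.00 in MIA_LPS, 76.5 ± 8.24 in CON_LPS, 51.6 ± 9.32 in MIA_SAL and 55.7 ± 7.42 in CON_SAL (SD, n = 5, 7, 6 and 5). Its difference was 24.5 ± 3.47 points (SE), limma BH-adjusted p = 1.98e-05, and it was 28.3 ± 4.99 points in MIA offspring and 20.8 ± 4.82 points in CON offspring.

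Lower at Bin1 after LPS were region 6, in the gene (chr18:32389590-32390090), and region 14, 364 bp outside a gene end (chr18:32435854-32436354). Region 6 ranked 36.7 to 71.8 in the LPS libraries and 57.5 to 77.6 in the saline libraries and fell by 18.1 ± 3.60 points (SE; limma BH-adjusted p = 8.46e-04). Region 14 ranked 0 to 54.6 in the LPS libraries and 33.4 to 71.7 in the saline libraries and had a peak in 9 of 12 LPS libraries and 11 of 11 saline libraries; it fell by 29.4 ± 6.55 points (SE; limma BH-adjusted p = 0.00242), and in lists of 16974 peaks the difference was −9.01 with an adjusted p of 0.168. The best ranked region, region 10 (chr18:32407288-32407788), moved little: it ranked 80.3 to 87.6 in the LPS libraries and 84.1 to 94.4 in the saline libraries and fell by 5.12 ± 1.56 points (SE; limma BH-adjusted p = 0.0231). By fold the adjusted p was 0.322. The other called regions of Bin1, named after their values were seen, were region 3, lower, and region 12, higher; by fold, region 12 had an adjusted p of 0.331.

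Crybb1 had the most lower regions, 5 of 12, in a neighbourhood it shares with Cryba4, another crystallin gene. Regions 2 and 4 lay outside Crybb1 in the body of Cryba4, and region 10 lay in that of the neighbour Tpst2. Regions 5 and 6 lay in the bodies of both Crybb1 and Cryba4. Region 6, which covers the printed promoter (chr5:112255391-112255891) and lies in the body of Cryba4, ranked 0 in all 12 LPS libraries, against 0 to 49.5 (median 19.3) in MIA_SAL and 49.1, 0, 47.8, 34.5 and 52.6 in CON_SAL libraries. In saline, 1 library of each prenatal group also had no peak. The difference was −29.7 ± 5.45 points (SE), limma BH-adjusted p = 3.87e-04, exact presence BH-adjusted p = 0.00199. By fold it was −4.96 points with an adjusted p of 0.140. Region 4 (chr5:112252377-112252877) was likewise open in 0 of 12 LPS libraries and 9 of 11 saline libraries, with limma BH-adjusted p = 0.00414, and was not kept when peaks were ranked by fold. Region 2 (chr5:112249585-112250085) was open in 2 of 12 LPS libraries and 7 of 11 saline libraries, with limma BH-adjusted p = 0.0122, and by fold 0.408. Its exact BH-adjusted p was 0.0968, and under 0.05 without any 1 of CON_LPS 3, CON_LPS 7 or CON_SAL 3. Region 5 at the outer end of the Crybb1 gene model and region 10, which mostly shares its peak with region 9, made up the 5 and were named after their values were seen. By fold, region 5 had a difference of −0.770 points with an adjusted p of 0.953, so that of the 5 only region 10 was called by fold. Region 10 had a peak in 6 saline libraries and 0 LPS libraries. In 5 of those 6 the peak was that of region 9 reaching into region 10, and 1 summit lay inside region 10.

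The best ranked region assigned to any of the 8 genes, region 9 of Crybb1 (chr5:112276346-112276846), lies 86 bp from Tpst2, a tyrosylprotein sulfotransferase gene, and ranked 97.2 to 99.7 in the LPS libraries and 96.0 to 99.6 in the saline libraries. In the gene body, region 7 (chr5:112265477-112265977) was open in all 23 libraries and ranked 71.3 to 90.2 in the LPS libraries and 74.4 to 86.7 in the saline libraries; it was looked at after the values were seen. Region 8 next to it (chr5:112266357-112266857) had a peak in 10 of 12 LPS libraries and 0 of 11 saline libraries and rose by 44.4 ± 10.8 points (SE), limma BH-adjusted p = 0.00510. In 5 of those 10 libraries the peak was that of region 7 reaching into region 8. Counting only summits inside the region left 5 LPS and 0 saline libraries, a difference of 8.03 points and a limma adjusted p of 0.129.

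**Figure D4:**
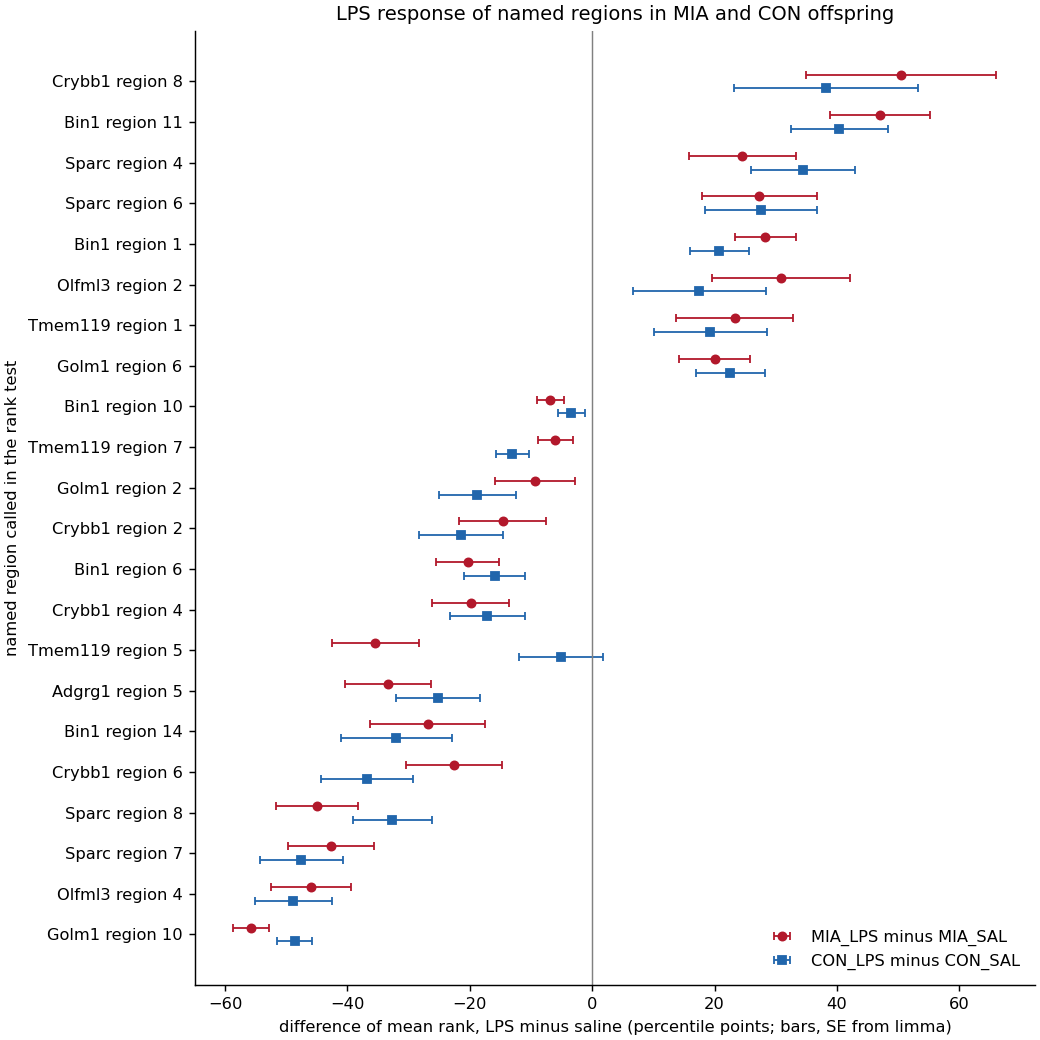
Difference of mean rank, LPS minus saline, with its limma SE, in MIA (circles) and CON offspring (squares) for the 22 named regions called in the rank test. Both symbols of each region lie on the same side of 0, with Golm1 region 10 lowest and Crybb1 region 8 highest by the mean of both, and Tmem119 region 5 shows the widest gap between them. Because the regions were called on that mean, the shared side is largely set by the choice.

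Tested in each prenatal group, LPS lowered 8 member regions and raised 5 in MIA offspring, where 4.01% of all regions were lower and 6.32% higher. In CON offspring 11 were lower and 4 higher, where 4.61% of all regions were lower and 5.72% higher. Of these calls, 9 regions were called in both, which is 69.2% of the 13 in MIA and 60.0% of the 15 in CON offspring. By fold, of 67 member regions kept, 5 were lower and 4 higher in MIA offspring, beside 2.37% and 4.58% of all regions. In CON offspring 5 were lower and 5 higher by fold, beside 2.84% and 4.2%. In lists of 16974 peaks, of 42 kept, 6 were lower and 1 higher in MIA offspring, beside 3.12% and 4.14%. In CON offspring 5 were lower and 1 higher in those lists, beside 3.31% and 4.05%. Exact permutation called 4 lower and 2 higher in MIA offspring and 3 lower and 0 higher in CON offspring. Its shares over all regions are not given here. In MIA offspring the number of higher regions was 3 without MIA_LPS 1 or 5 or any 1 of the 6 MIA_SAL libraries. The 2 contrasts used different libraries and 1 shared estimate of the spread.

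The difference of the LPS response between MIA and CON offspring passed the test in 0 of the 78 regions by limma, and in 0.00204% of all regions; 7 of the 78 had an unadjusted p under 0.05, as had 4.45% of all regions. The smallest p was at region 5 of Tmem119, where LPS minus saline was −35.5 ± 7.12 points in MIA offspring and −5.07 ± 6.88 points in CON offspring (SE), a difference of −30.4 ± 9.90 with a limma BH-adjusted p of 0.988. At region 10 of Golm1 the difference of the responses was −7.09 ± 4.07 points, at region 7 of Sparc 4.82 ± 9.74 and at region 11 of Bin1 6.63 ± 11.4 (SE; limma BH-adjusted p of 0.988 to 0.994). Since a difference of about 3 SE did not pass the adjustment, differences of several SE could not be told from 0.

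MIA and CON libraries with the same injection did not pass the test at any of the 78 regions by limma. After LPS, 0.0448% of all regions were called, and 7 of the 78 had an unadjusted p under 0.05, as had 5.63% of all regions; region 8 of Sparc was the nearest, lower in MIA_LPS than in CON_LPS by 23.4 points with a BH-adjusted p of 0.394. After saline, 0% of all regions were called, and 3 of the 78 had an unadjusted p under 0.05, as had 5.15% of all regions (smallest BH-adjusted p 0.846). In the exact presence test of MIA against CON, 0% of the 15266 regions tested were called, and 1 of the 23 member regions tested had an unadjusted p under 0.05, as had 2.69% of those 15266. An exact permutation test of ranks called 0 as well, but with this few libraries its smallest p passes the adjustment only if a great many regions reach it, so that count says nothing further.

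Regions of other genes in the same libraries were counted in the same way. Of 417 regions at 45 other genes of homeostatic microglia, 77 (18.5%) were lower and 40 (9.59%) higher after LPS, with a median difference of −1.49 points, and 5 of these regions, near Selplg, were shared with Tmem119. Among them a region at Tgfbr2, a receptor for TGF-beta, ranked 0 in all LPS libraries, against a mean of 46.8 in MIA_SAL and 52.7 in CON_SAL libraries. A region at Trem2, a lipid receptor of microglia, had a peak in 12 of 12 LPS and 0 of 11 saline libraries. Of 113 regions at 16 acute inflammatory genes, 30 (26.5%) were higher and 6 (5.31%) lower. Housekeeping genes had 4 higher and 4 lower of 62.

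Genes of other cells of the brain and blood were counted the same way, since the Sparc, Adgrg1 and Bin1 loci are used by other cell types too. Lower and higher after LPS were 5 and 7 of 39 regions at endothelial and mural genes, 2 and 1 of 36 at oligodendrocyte genes, 3 and 4 of 32 at astrocyte genes and 3 and 2 of 23 at neuron genes. For border-associated macrophages they were 2 and 5 of 36, and for monocytes and neutrophils 4 and 3 of 31. The number of endothelial and mural regions with a peak was 20 to 24 of 39 in MIA_LPS, 19 to 26 in CON_LPS, 15 to 22 in MIA_SAL and 19 to 27 in CON_SAL libraries. For the monocyte and neutrophil list it was 16 to 22 of 31 in MIA_LPS, 17 to 24 in CON_LPS, 12 to 20 in MIA_SAL and 16 to 21 in CON_SAL. Regions were kept at 6 of 9 endothelial and mural genes, with none at Cldn5, Tek and Rgs5. They were kept at 9 of 11 monocyte and neutrophil genes, with none at Ly6c2 and Retnlg. Fewer cells of a type and a weaker signal per cell cannot be told apart in these bulk libraries, and the part of other cells in the results was not tested.

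**Figure D5:**
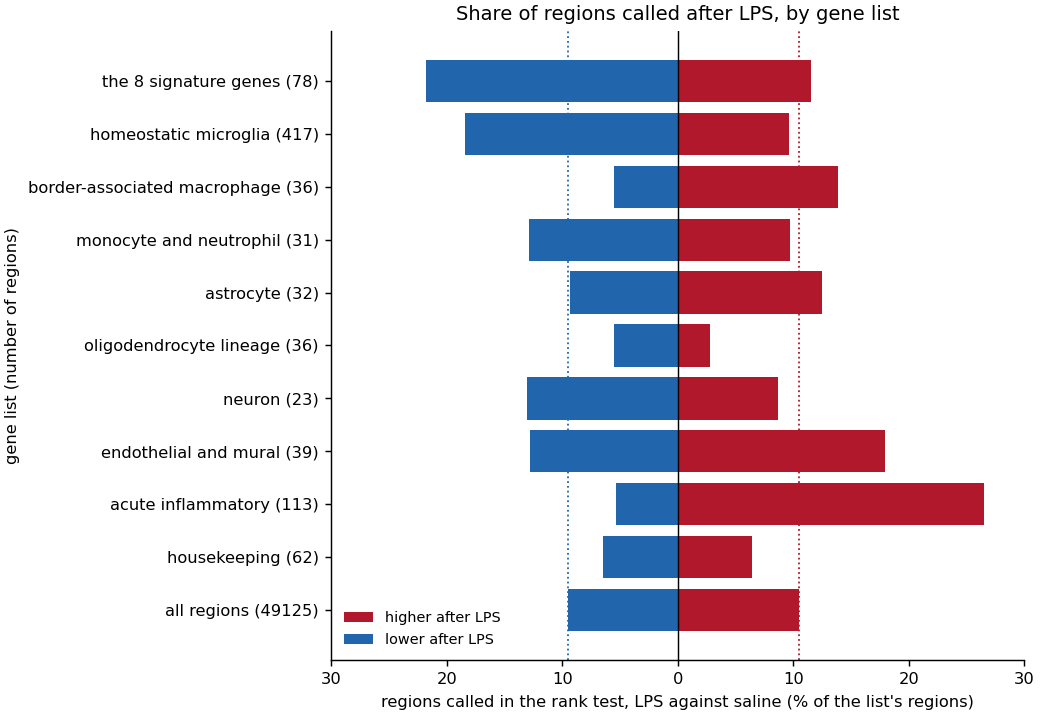
Share of the regions of each gene list that were lower (left) or higher (right) after LPS in the rank test, with the number of regions in brackets; dotted lines mark the shares over all regions, 9.48% and 10.5%. The 8 signature genes (21.8% lower) and the other homeostatic genes (18.5%) have the longest bars to the left, and the acute inflammatory genes (26.5% higher) the longest to the right.

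The patterns of the strongest regions recurred elsewhere in the genome, as a description over 23 libraries that share their treatment. For region 10 of Golm1 the most alike regions, at least 100 kb away, lay at Uba7, Kcnk9 and 1700025G04Rik, with Pearson correlations of rank of 0.988, 0.987 and 0.979. Region 11 of Bin1 was most like regions nearest to Azin1 (0.970), Snx1 (0.967) and Nfe2l1 (0.965). Region 6 of Crybb1 was most like those at Fbxl17 (0.943), Prl5a1 (0.934) and Naaladl2 (0.925), and region 4 of Olfml3 those at Cfap61 (0.940), Cmtm7 (0.937) and Snn (0.921). Region 7 of Sparc was most like those at Pde4dip (0.918), Akirin2 (0.916) and Dock4 (0.913), and region 5 of Adgrg1 those at Zfp382 (0.897), Prom1 (0.880) and Akirin2 (0.877). Region 7 of Tmem119 had the weakest matches, near Sgk1 (0.849), Usp6nl (0.843) and Ebf3 (0.838).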

How the data were processed

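The 23 ATAC-seq libraries came from sorted striatal microglia. The submitters' processing notes name cutadapt, Bowtie2, SAMtools, Picard, MACS2 and DiffBind and the builds mm10 and GRCm38, with versions and parameters not given in the sources used here. For each library the authors deposited 1 peak list, with a signal value that is a fold enrichment ratio, −log10 p, −log10 q and a summit for each peak. These values are the authors' and were used only to order the peaks within a list. The integer score that the authors deposited with each peak was not used. The lowest −log10 q in the deposited lists was 1.30. No counts were used here, so depth and its precision are unknown.

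Each list was shortened to the 33949 peaks of the shortest by −log10 p. Summits were merged to windows reaching 250 bp to either side, kept where 3 or more libraries had a peak. Presence meant that a peak covered 50% of the region, or the region 50% of the peak. The rank was the percentile of the peak within the list, with 100 for the best and 0 for none. Ranks were fitted with limma 3.58.1 (R 4.3.3) over the 4 group means. The number of libraries with a peak was compared by an exact two-sided conditional test, for regions whose numbers allow a p of 0.01 or less. All p-values were BH-adjusted over all regions tested, with a call at an adjusted p under 0.05. Both tests were tested on simulated data. Tables were handled with Python 3.11.15. Of each gene, the region nearest to the start, the best ranked and up to 4 called ones are named. The genes, lists and tests were chosen with earlier results of these data known. Gene positions and promoters are RefSeq's on GRCm38.p6. Alternatives were ranks by fold, lists of 16974 peaks, all deposited peaks, summits inside the region, no minimum of libraries, a replicate block, sorted cells as a covariate, the ID number as a block, exact permutation, and leaving out libraries.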

Additional observations from a re-analysis of the deposited data

Results flagged for a closer look

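In 8 of 120 sets of a named region and a group, 1 library lay far from the rest of its group, by a test that chance alone flags in about 1 of 20 sets. At region 4 of Olfml3, the start, CON_LPS 3 ranked 44.6, while the other CON_LPS libraries ranked at most 13.1. At region 11 of Golm1, also the start, the same library ranked 4.86 and lay below all others. At region 1 of Tmem119, CON_LPS 4 ranked 43.6, and at region 1 of Bin1 the same library ranked 59.6, both the lowest of their group. CON_SAL 3 ranked 42.6 at region 1 and 57.5 at region 6 of Bin1, again the lowest of its group. At region 5 of Adgrg1, MIA_LPS 3 ranked 7.98 where the other MIA_LPS libraries had no peak, and at region 7 of Adgrg1, MIA_SAL 1 ranked 28.7. Leaving out the library that stood apart changed no call at its region.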

How the results depend on the processing

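No called difference of a named region changed sign under the alternatives run. Uncalled ones did: region 11 of Golm1 was at 4.79 points by fold, region 2 of Slc2a5 as low as −0.778 and under 0 without any 1 of 9 libraries, and region 2 of Crybb1 had more LPS libraries with all deposited peaks. Region 3 of Adgrg1 was called, higher after LPS, only when summits inside the region were counted (58.9 points, limma adjusted p = 3.15e-05). The counts for MIA against CON and for the difference of the LPS responses were 0 of 78 throughout, which exact permutation could hardly have changed. With peaks ranked by fold, 9 regions were lower after LPS over both prenatal groups, 5 in CON and 5 in MIA offspring, and 4 by presence. By presence, 1041 of all 18822 regions tested by fold were lower. With lists of 16974 peaks, 3 were higher and 9 lower over both prenatal groups, 1 higher and 5 lower in CON, 1 higher in MIA, and 0 higher by presence. Of all 8783 regions tested by presence in those lists, 1297 were higher. With all deposited peaks, presence gave 10 higher and 4 lower. With no minimum of libraries, 3 were higher in MIA, beside 2701 of all 74289 regions. Exact permutation gave 0 higher and 3 lower in CON, and 2 higher and 4 lower in MIA offspring. With 1 library left out at a time, the calls ranged over 7 to 10 higher and 15 to 20 lower (both prenatal groups), 4 to 6 and 8 to 13 (CON), 3 to 5 and 7 to 10 (MIA), and 4 to 7 and 6 to 8 (presence). Among all regions, 4733 to 5339 were then higher and 4157 to 4936 lower over both prenatal groups. For the other comparisons the ranges over all regions are not given here. Same-numbered libraries correlated at −0.180 to 0.185 (31 pairs) and others at −0.229 to 0.234 (166 pairs), so the numbers were not taken to pair them. The 6 pairs that share an ID number across treatments correlated at 0.0286 to 0.156, 4 of them over 0.1. The ID block gave 9 higher and 18 lower, 5 and 9 in CON and 6 and 9 in MIA. Of all 49125 regions it gave 2809 higher and 2189 lower in CON, and 3312 and 2136 in MIA. With the replicate number as a block the rank test gave 9 higher and 16 lower, beside 5139 and 4409 of all 49125 regions. Presence then gave 4 and 3, beside 1297 and 349 of all 2106 regions tested. With that block, region 10 of Bin1 (adjusted p = 0.0695) and region 2 of Golm1 (0.0531) lost their limma calls. The cause of these shifts was not tested, except that shorter lists hold fewer peaks by construction. Absent peaks are limited by depth, which is unknown.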
